A study of Mus musculus with 6 samples.

Results

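The 40 genes described here handle thiols, peroxides and related oxidants. They are Txnip and the thioredoxin system (6 genes), the peroxiredoxins with sulfiredoxin (7), glutathione peroxidases (6), the enzymes that make and recycle glutathione with the glutaredoxins (6), superoxide dismutases and catalase (4), the NRF2 and KEAP1 regulators with quinone and heme enzymes (5), and glutathione transferases (6). They were chosen by gene symbol, with earlier results of these data known. The paper names Txnip among the genes enriched in both human and mouse primitive spermatogonia. All 40 had a row among the 24973 genes of the deposited table. Their expression was compared between undifferentiated spermatogonia (β-2M-SPα-6+c-kit-, here c-kit- cells) and differentiating spermatogonia (β-2M-SPα-6+c-kit+, here c-kit+ cells), on 3 arrays for each population, every array from 1 mouse. All mice were adult FVB/N animals of 2 to 3 months, and the labels name no treatment or altered allele. In both populations the cells had been enriched on beads for α-6 integrin, carried the side population (SP) Hoechst phenotype, lacked β-2 microglobulin and differed at the gate for c-kit. A sample was 10000 sorted cells, from which 500 pg of RNA went into amplification, so each array describes a sorted bulk population.

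Thioredoxin and glutathione are the main thiol reductants of the cell. Thioredoxin reductase and glutathione reductase return them to their reduced form at the expense of NADPH, peroxiredoxins and glutathione peroxidases use them to remove peroxides, and glutathione transferases couple glutathione to electrophiles such as lipid peroxidation products. TXNIP binds reduced thioredoxin and blocks it, and it also acts as an alpha-arrestin that takes glucose transporters off the cell surface. NRF2, held in check by KEAP1, drives many of the other genes through antioxidant response elements, while the MLX partners MondoA and ChREBP drive Txnip through carbohydrate response elements when glucose metabolites are plentiful. In the mouse testis, loss of Prdx4 or of the mitochondrial form of Gpx4 is known to harm sperm.

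The promoters that carry these elements were read from RefSeq sequences of the assembly GRCm38.p6, which hold 250 bases before and 50 bases after a gene's start, and 34 of the 40 genes had an entry. Prdx6, Gsr, Gclc, Sod3, Hmox1 and Gsta4 had none. Motifs were searched on both strands. The carbohydrate response element, spelled as 2 copies of CACGNG with 5 bases of any kind between them (N is any base), was present in 13 of 18337 array genes with a promoter (0.0709%), and Txnip was the only gene of the 34 to hold it. It is shown because Txnip is the gene this element is known for. The sequence below runs 5′ to 3′ from chr3:96557707-96557956 on the + strand, which is the 250 bases before the start, with the element at -85 to -69 in capitals.
Txnip: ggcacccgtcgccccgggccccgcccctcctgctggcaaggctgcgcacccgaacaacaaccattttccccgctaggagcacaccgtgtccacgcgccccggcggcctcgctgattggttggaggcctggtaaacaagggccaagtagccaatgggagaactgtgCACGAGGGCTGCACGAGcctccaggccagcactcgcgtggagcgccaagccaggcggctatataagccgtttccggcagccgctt

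The antioxidant response element was searched in a core form, TGACNNNGC, and in the form shared with NF-E2 and Maf proteins, TGACTCAGC or TGAGTCAGC, of which the first spelling is also a core match. The core was present for 2759 genes (15% of the array genes with a promoter) and for 8 of the 34. These were Prdx1 and Txnrd1, which were higher in c-kit- cells, and Gclm, Gstm5, Mgst1, Nfe2l2, Sod1 and Srxn1, which were not called. The NF-E2 form was present for 169 genes (0.922%) and for 3 of the 34, Prdx1, Gstp1 and Srxn1. The stretches below show these 3 matches in capitals, each 5′ to 3′ along the gene, since Prdx1 and Gstp1 were higher in c-kit- cells and Srxn1 was not called. Prdx1 is from chr4:116685399-116685498 on the + strand, with the match on the opposite strand at -133 to -125. Gstp1 is from chr19:4037943-4038042 on the - strand, with the match at -74 to -66, and Srxn1 is from chr2:152105394-152105493 on the + strand, with the match at -45 to -37.
Prdx1: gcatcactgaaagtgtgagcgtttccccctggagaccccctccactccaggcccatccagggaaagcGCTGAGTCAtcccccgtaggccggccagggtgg
Gstp1: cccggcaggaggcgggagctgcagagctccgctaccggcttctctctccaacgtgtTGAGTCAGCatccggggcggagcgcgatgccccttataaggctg
Srxn1: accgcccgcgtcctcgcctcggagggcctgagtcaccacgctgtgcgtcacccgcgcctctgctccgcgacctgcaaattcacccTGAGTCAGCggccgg

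A match is a description of letters in these windows, and the arrays carry no measurement of binding.

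The deposited values are log2 values after robust multi-array average (RMA) processing, so 1 unit is a 2-fold difference, and levels are compared only within a gene. Array medians ran from 5.25 to 5.33 and single values from 2.03 to 12.97. Kit, the gene of the sort marker, was at 6.07, 6.35 and 6.03 on the c-kit- arrays and at 9.84, 9.85 and 9.69 on the c-kit+ arrays. All 10 markers of undifferentiated spermatogonia were higher in c-kit- cells. Of 8 markers of differentiating spermatogonia 6 were lower, Sohlh2 was not called and Ccnd2, a cyclin, was higher (log2 1.45, limma adjusted p = 0.000616). The paper already reports most of the 10 for the c-kit- cells of these arrays, and c-kit was the sort gate. These directions are therefore no independent check of cell identity. The 7 measured Leydig cell markers lay below 5 on every array, and spermatid markers averaged 9.76 to 10.31 on c-kit- and 9.94 to 10.19 on c-kit+ arrays. Some markers of other cell types differed between the populations. The mean of 14 leukocyte markers was 5.06 to 5.36 on the c-kit- arrays and 6.37, 6.06 and 5.23 on the c-kit+ arrays, where the markers Cd74, H2-Ab1 and C1qb were the 3 called, all lower in c-kit- cells. The mean of 10 endothelial markers was 4.72 to 4.81 against 4.32 to 4.44, with 4 called higher in c-kit- cells and 4 below 5 on every array. The mean of 8 peritubular myoid markers was 5.25 to 5.35 against 5.48 to 5.56, with 1 called higher and 2, Tagln and Mylk, lower in c-kit- cells, and 2 below 5 on every array. The part of these cell types in the values below was not tested, except that each count is also given with c-kit+ replicate 3, the array low in leukocyte markers, as the only c-kit+ array.

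In c-kit- cells, limma called 11 of the 40 genes higher and 1 lower (adjusted p under 0.05), and left 28 uncalled. Among all 24973 genes, 9.33% were called higher and 8.79% lower, against 27.5% and 2.5% of the 40. Most of the 40 had a mean value above that of the median gene. When only genes above it were tested, larger shares of them were called in both directions, with 11 of the 40 higher and 1 lower. The shares of all genes are therefore a low yardstick for the 40. The median log2 fold change (c-kit- minus c-kit+) of the 40 genes was -0.04, as was that of all genes. All 3 c-kit- arrays lay above all 3 c-kit+ arrays for 13 of the 40, against 15.9% of all genes, and below them for 5, against 19.1% of all genes. The 12 called genes were all among these 18, and for each of them a two-sided exact permutation test gives 0.1, the smallest p that 3 arrays against 3 allow. The genes higher in c-kit- cells were Gstp1, Gpx1, Txnip, Gsta4, Mgst3, Hmox1, Txnrd1, Prdx3, Prdx1, Gpx8 and Nqo1, with fold changes from 3.74 down to 1.29, and the lower gene was Prdx4. In sorted bulk cells a difference in RNA per cell and a difference in the share of cells that hold the RNA cannot be told apart. With c-kit+ replicate 3 as the only c-kit+ array, the log2 fold changes of the 11 higher genes ran from 0.27 (Nqo1) to 1.70 (Gstp1). That of Prdx4 was -0.38. The counts per role below are to be read beside the shares of all genes above, at which a small group can hold 0 calls.

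**Figure D1:**
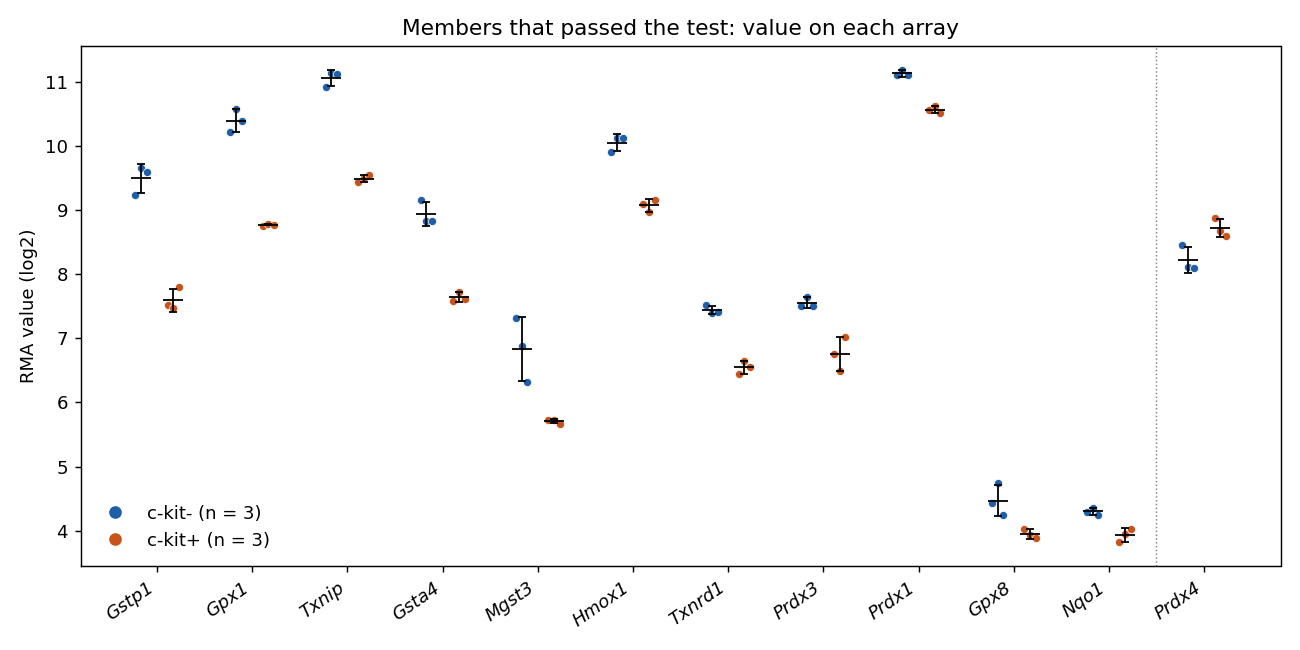
RMA value (log2, y axis) of the 12 called genes on each array (points), with the mean and SD of 3 arrays per population (black bars), c-kit- in blue and c-kit+ in orange. The c-kit- points lie above the c-kit+ points for the 11 genes left of the dotted line and below them for Prdx4.

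Txnip, the thioredoxin inhibitor, was 2.97-fold higher in c-kit- cells. Txnip (gene ID 56338, chromosome 3) was at 10.92, 11.13 and 11.12 on the c-kit- arrays and at 9.43, 9.49 and 9.54 on the c-kit+ arrays. The populations were separated by more than 1 log2 unit, and arrays within a population differed little. The log2 fold change was 1.57 with a standard error of 0.11 (95% interval 1.32 to 1.82, n = 3 per population, limma adjusted p = 7.96e-05), which placed Txnip at rank 114 of all genes by p and 345 by the size of the change. Leaving out any 1 array kept it between 1.53 and 1.64.

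The thioredoxin enzymes did not share 1 pattern. Txnrd1, the cytosolic thioredoxin reductase (gene ID 50493, chromosome 10), was at 7.52, 7.39 and 7.41 on the c-kit- arrays and at 6.45, 6.64 and 6.55 on the c-kit+ arrays. It was 1.86-fold higher in c-kit- cells (log2 0.89, SE 0.11, limma adjusted p = 0.000893), with no overlap of the arrays. Txn1, the cytosolic thioredoxin that both TXNIP and this reductase act on, was at 7.20, 6.89 and 6.50 against 7.40, 7.13 and 7.17. The arrays overlapped, the log2 fold change was -0.37 (95% interval -0.78 to 0.04) and Txn1 was not called (limma adjusted p = 0.212). Txn2, the mitochondrial thioredoxin, was at 8.72, 8.73 and 8.58 against 8.32, 8.39 and 8.28. Its arrays did not overlap, and its adjusted p of 0.0502 in limma (log2 0.35) lay just outside the threshold. It was called in 8 of 20 other settings of the analysis. The mitochondrial reductase Txnrd2 (-0.26, 95% interval -0.61 to 0.09) and Txnrd3, a reductase with a glutaredoxin domain that is prominent in the testis (-0.07, 95% interval -0.32 to 0.18), were not called.

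Among the peroxiredoxins, which remove peroxides with electrons from thioredoxin, c-kit- cells had 2 higher and 1 lower, and 3 were not called. Prdx3, the mitochondrial peroxiredoxin (gene ID 11757, chromosome 19), was at 7.51, 7.65 and 7.50 on the c-kit- arrays and at 6.76, 6.49 and 7.02 on the c-kit+ arrays. It was 1.74-fold higher (log2 0.80, SE 0.15, limma adjusted p = 0.00676), although the c-kit+ arrays were spread. Prdx1, the main cytosolic peroxiredoxin (gene ID 18477, chromosome 4), was at 11.09, 11.19 and 11.10 against 10.56, 10.61 and 10.51. The arrays of each population lay within 0.1 log2 units and the fold change was 1.48 (log2 0.57, SE 0.10, limma adjusted p = 0.00532). Prdx4, the peroxiredoxin of the endoplasmic reticulum (gene ID 53381), was the only X-linked gene of the 40 and the only one lower in c-kit- cells. It was at 8.45, 8.11 and 8.10 against 8.88, 8.67 and 8.60, a log2 fold change of -0.50 (SE 0.14, limma adjusted p = 0.0394). The populations stood close together and of the 6 fits that left out 1 array, only that without c-kit- replicate 1 made the call (adjusted p 0.0167 to 0.126).

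Prdx2, a second cytosolic peroxiredoxin, was at 7.50, 7.31 and 7.04 on the c-kit- arrays and at 6.92, 6.74 and 6.88 on the c-kit+ arrays. The arrays did not overlap, but the log2 fold change of 0.44 (SE 0.14) was not called (limma adjusted p = 0.0624). Prdx5, found in mitochondria, peroxisomes and the cytosol, had a log2 fold change of -0.28 (95% interval -0.58 to 0.02). Prdx6, which takes electrons from glutathione, had 0.29 (95% interval -0.17 to 0.75), and its c-kit- arrays ranged from 7.21 to 8.06. Srxn1, the sulfiredoxin that repairs over-oxidized peroxiredoxins and whose promoter match is printed above, was at 6.24, 6.16 and 6.06 against 6.20, 6.42 and 6.36 and was not called (log2 -0.17, limma adjusted p = 0.351).

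Gpx1 stood out among the 6 glutathione peroxidases, which reduce peroxides with glutathione. Gpx1, the abundant cytosolic enzyme (gene ID 14775, chromosome 9), was at 10.22, 10.57 and 10.39 on the c-kit- arrays and at 8.76, 8.78 and 8.77 on the c-kit+ arrays. The gap between the populations was several times the spread within either, and the fold change was 3.08 (log2 1.62, SE 0.12, 95% interval 1.35 to 1.89, limma adjusted p = 9e-05). Gpx8, a membrane protein of the endoplasmic reticulum (gene ID 69590, chromosome 13), was at 4.43, 4.74 and 4.25 against 4.03, 3.93 and 3.89. These values lie below the array medians. The log2 fold change was 0.52 (SE 0.14, limma adjusted p = 0.0358), and of the 6 fits without 1 array it passed only in that without c-kit- replicate 3 (adjusted p 0.0238 to 0.111). Gpx4, the phospholipid hydroperoxidase that sperm also use as a structural protein, was not called, with a log2 fold change of -0.10 (95% interval -0.52 to 0.33). It was at 5.87, 5.84 and 6.13 against 5.62, 6.26 and 6.24, not far above the array medians. How well this row measures Gpx4 RNA was not tested. Gpx2, Gpx3 and Gpx7, best known as the intestinal, plasma and endoplasmic reticulum enzymes, were not called either, with log2 fold changes of 0.25, -0.32 and -0.07.

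None of the 6 genes that make, recycle or use glutathione as glutaredoxins was called. The catalytic subunit of glutamate cysteine ligase, Gclc, which sets the pace of glutathione synthesis, was at 8.52, 8.84 and 8.48 on the c-kit- arrays and at 8.81, 8.77 and 8.73 on the c-kit+ arrays (log2 -0.15, 95% interval -0.44 to 0.13). Its modifier subunit Gclm had a log2 fold change of -0.05 (95% interval -0.28 to 0.18) and Gss, glutathione synthetase, of -0.12 (95% interval -0.36 to 0.13). Glutathione reductase, Gsr, was at 9.95, 10.21 and 10.04 against 10.12, 10.01 and 10.13, with a log2 fold change of -0.02 (95% interval -0.27 to 0.24). The arrays overlapped for all 6, and the intervals of these 4 genes leave room for less than a 1.5-fold difference either way. Glrx, the cytosolic glutaredoxin, was below the array medians on all arrays (log2 -0.21). Glrx2, the mitochondrial glutaredoxin, was at 7.06, 7.37 and 7.60 against 6.87, 6.77 and 7.08 (log2 0.44, limma adjusted p = 0.0976) and was called only in the fit without c-kit- replicate 1.

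The superoxide dismutases and catalase were not called. Sod1, the copper and zinc enzyme of the cytosol, had a log2 fold change of 0.20 (95% interval -0.24 to 0.64) and values from 10.92 to 11.64 that overlapped between the populations. Sod2, the mitochondrial manganese enzyme, was at 8.53, 8.54 and 8.46 on the c-kit- arrays and at 8.71, 8.75 and 8.76 on the c-kit+ arrays. Its arrays did not overlap, but the log2 fold change of -0.23 was not called (limma adjusted p = 0.15). The extracellular Sod3 (-0.16, 95% interval -0.48 to 0.16) and Cat, the peroxisomal catalase (-0.05, 95% interval -0.35 to 0.24), overlapped between the populations.

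Nfe2l2, which encodes NRF2, was at 9.07, 9.14 and 8.93 on the c-kit- arrays and at 9.23, 8.95 and 9.28 on the c-kit+ arrays, and Keap1 was at 5.87, 5.17 and 5.50 against 5.77, 5.43 and 5.51. Both overlapped and neither was called, with log2 fold changes of -0.11 (95% interval -0.40 to 0.18) and -0.05 (95% interval -0.47 to 0.37). Hmox1, the inducible heme oxygenase (gene ID 15368, chromosome 8), was at 9.90, 10.12 and 10.12 against 9.09, 8.96 and 9.16. It was 1.97-fold higher in c-kit- cells (log2 0.98, SE 0.11, limma adjusted p = 0.000849), with no overlap. Hmox1 is also a stress-induced gene, and the inducible heat shock genes Hspa1a (log2 2.86) and Hspa1b (log2 1.63), named after their values were seen, were higher in the same arrays. Their relation to the Hmox1 value was not tested. Hmox2, the constitutive heme oxygenase, was at 9.21, 9.16 and 9.21 against 9.35, 9.44 and 9.39, without overlap but not called (log2 -0.20, limma adjusted p = 0.209). Nqo1, the quinone reductase widely used as an NRF2 readout (gene ID 18104, chromosome 8), was at 4.30, 4.36 and 4.25 against 3.82, 3.96 and 4.03, all below the array medians. Its log2 fold change was 0.37 (SE 0.11, limma adjusted p = 0.0473), and it was called in 0 of the 6 fits without 1 array (adjusted p 0.0753 to 0.147).

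Glutathione transferases had 3 of 6 genes (50%) higher in c-kit- cells, against 9.33% of all genes. Among them was the largest change of the 40. Gstp1, the pi class enzyme (gene ID 14870, chromosome 19), was at 9.24, 9.65 and 9.59 on the c-kit- arrays and at 7.51, 7.47 and 7.79 on the c-kit+ arrays. The fold change was 3.74 (log2 1.90, SE 0.15, 95% interval 1.56 to 2.24, limma adjusted p = 0.000118). Gstp1 has a near-identical neighbour, Gstp2, that had no row of its own here, so probes may have read RNA of both.

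Gsta4, the alpha class enzyme that clears hydroxynonenal from oxidized lipids (gene ID 14860, chromosome 9), was at 9.16, 8.82 and 8.82 against 7.58, 7.73 and 7.61. It was 2.46-fold higher (log2 1.30, SE 0.13, limma adjusted p = 0.000355). Mgst3, a membrane-bound transferase (gene ID 66447, chromosome 1), was at 7.31, 6.87 and 6.32 against 5.73, 5.73 and 5.67, so the c-kit- arrays were widely spread but all above the c-kit+ arrays (log2 1.12, SE 0.22, limma adjusted p = 0.00929). The mu class genes Gstm1 (log2 0.10, 95% interval -0.14 to 0.34) and Gstm5 (log2 0.20, 95% interval -0.09 to 0.49), which belong to a family of similar sequences, were not called, and neither was the microsomal Mgst1 (log2 -0.23, 95% interval -0.46 to -0.00), whose c-kit- arrays all lay below the c-kit+ arrays.

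**Figure D2:**
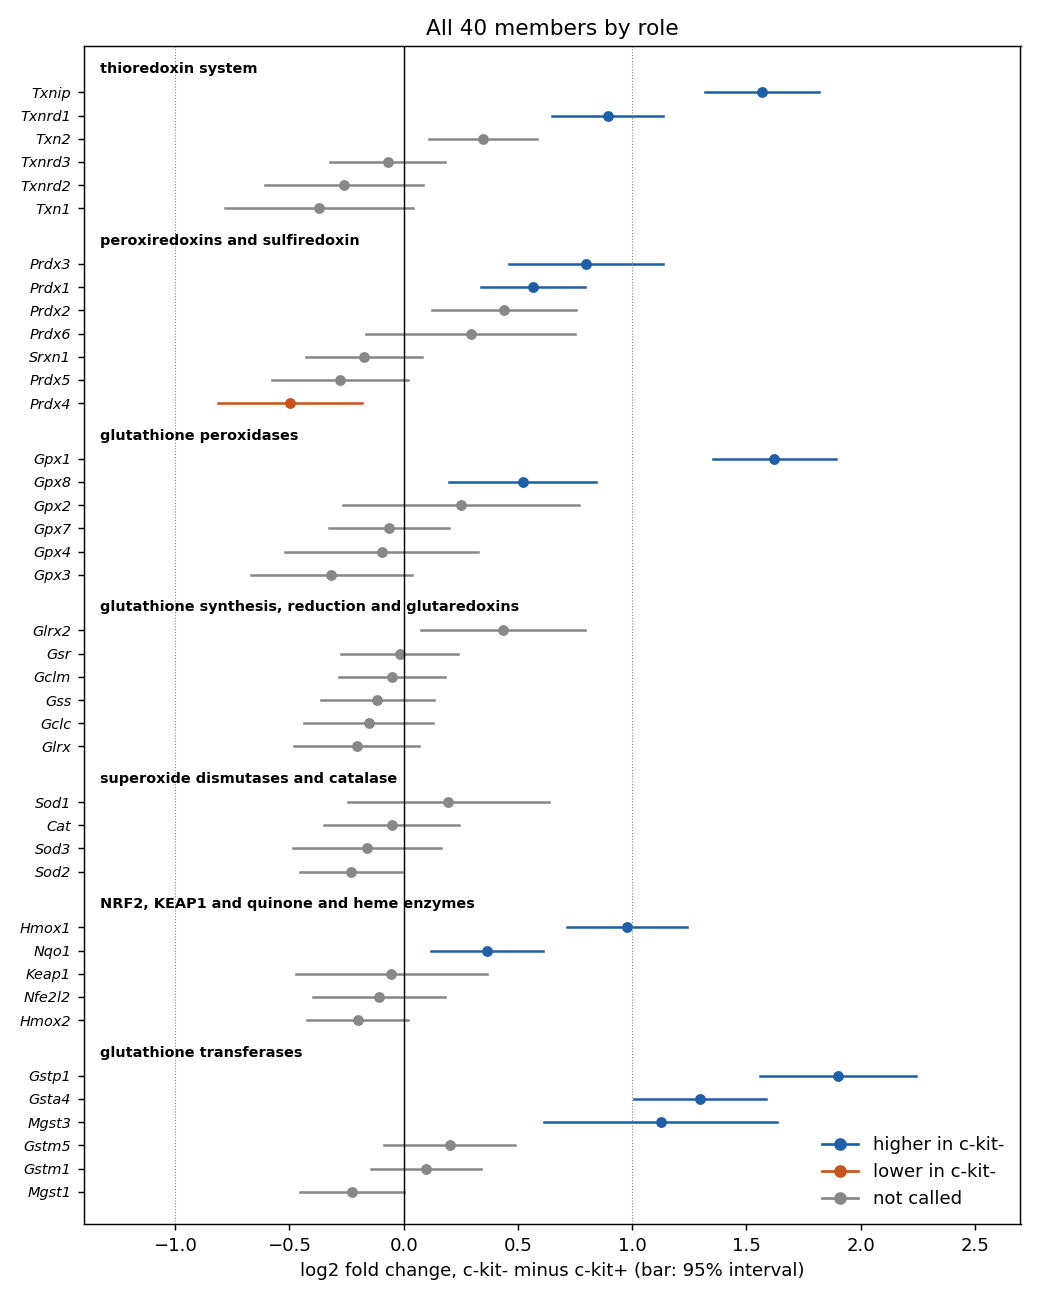
Log2 fold change (x axis, c-kit- minus c-kit+) of all 40 genes grouped by role, with 95% intervals from limma (bars), 3 arrays per population; dotted lines mark a 2-fold change. Called genes lie in every group but glutathione synthesis and the superoxide dismutases with catalase, and the grey intervals of the 28 uncalled genes stay inside the dotted lines.

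For all 28 uncalled genes the 95% interval lay inside a 2-fold change either way, and for 20 of them inside a 1.5-fold change. Their log2 fold changes ran from -0.37 (Txn1) to 0.44 (Prdx2).

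**Figure D3:**
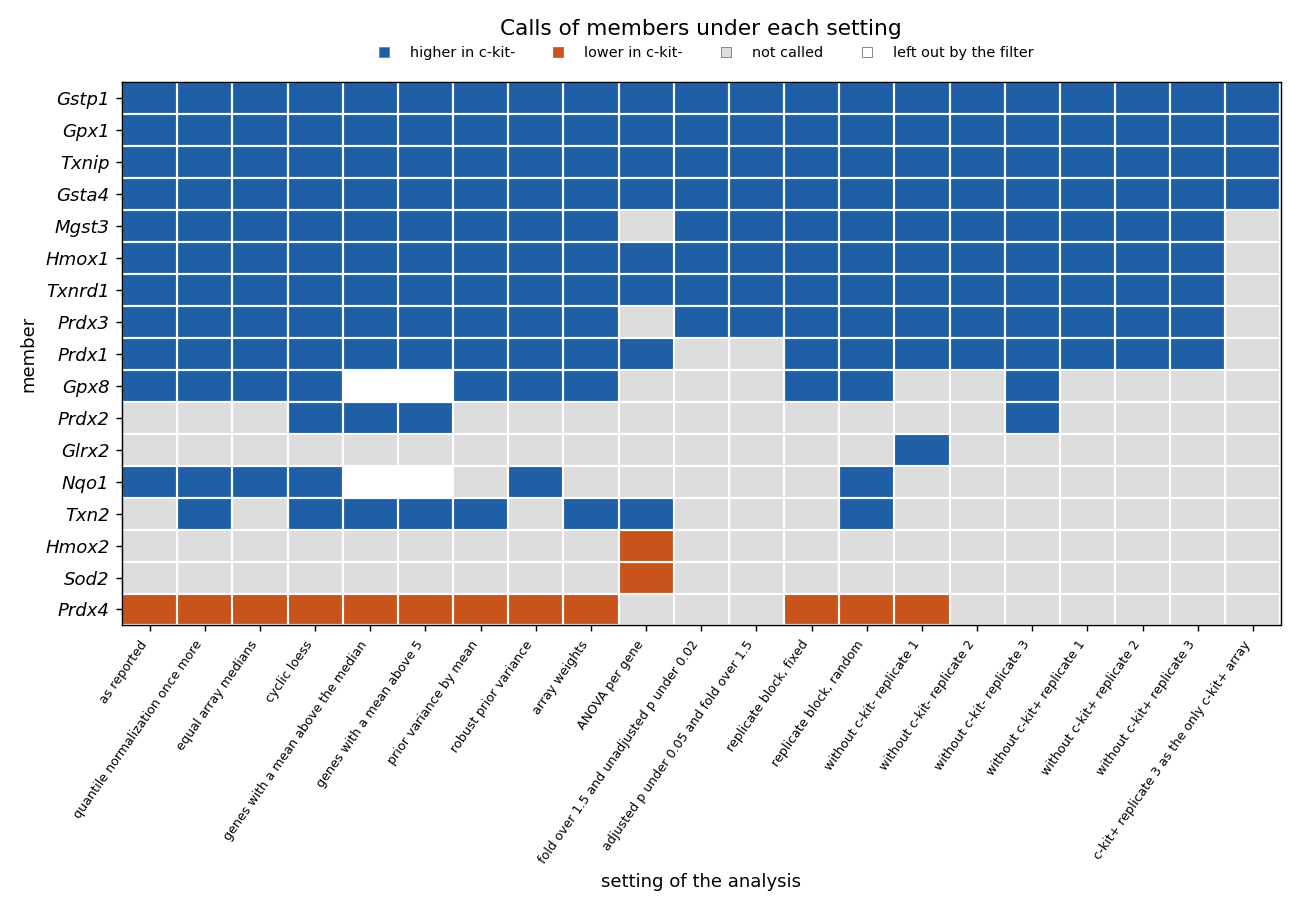
Call of each gene (rows) under the reported setting and 20 other settings of the analysis (columns), for the genes called in at least 1 of them. Gstp1, Gpx1, Txnip and Gsta4 are blue in every column, while Gpx8, Nqo1 and Prdx4 lose the call in most of the columns that leave out an array.

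A list of 141 other genes of the same pathways gave the surroundings of the 40, and 139 of them had a row. In c-kit- cells 20 (14.4%) of these were higher and 13 (9.35%) lower, against 9.33% and 8.79% of all genes, with a median log2 fold change of 0.03. The lower share is close to that of all genes. Calls with c-kit+ replicate 3 as the only c-kit+ array are not counted here, since 1 array holds no spread of its own. The family counts below are to be read beside these shares of all genes, at which a small family can hold 0 calls. Most of the 139 genes also had a mean value above that of the median gene. Among genes above it, larger shares were called in both directions. The shares of all genes are therefore a low yardstick here too, and an excess over them was not tested at matched levels.

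TXNIP is 1 of the alpha-arrestins, and of the other 5 measured, Arrdc3 was higher and Arrdc1 was lower in c-kit- cells. Arrdc3, an adaptor that brings ubiquitin ligases to membrane receptors, was at 9.60, 9.81 and 9.68 on the c-kit- arrays and at 7.80, 7.71 and 7.67 on the c-kit+ arrays. It was 3.92-fold higher (log2 1.97, SE 0.11, limma adjusted p = 3.2e-05), with no overlap of the arrays. Arrdc1 had a log2 fold change of -0.50 (limma adjusted p = 0.0178) and passed in 2 of 6 fits without 1 array. Arrdc2 (0.07), Arrdc4 (0.08), known elsewhere as a partner of Txnip under the control of MondoA, and Arrdc5 (-0.18) were not called.

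Both factors known to drive Txnip through such an element were lower in c-kit- cells. Mlxipl, which encodes ChREBP, was at 6.73, 7.24 and 7.19 on the c-kit- arrays and at 7.95, 8.06 and 8.01 on the c-kit+ arrays (log2 -0.95, SE 0.15, limma adjusted p = 0.00318). Mlxip, which encodes MondoA, was at 7.98, 8.23 and 8.41 against 9.01, 8.98 and 8.95 (log2 -0.77, SE 0.13, limma adjusted p = 0.00435). Neither overlapped between the populations. Their shared partner Mlx, at 7.12, 7.22 and 6.95 against 6.86, 6.51 and 6.90, was not called (log2 0.34, limma adjusted p = 0.141). Slc2a1, the glucose transporter on which TXNIP is known to act, was named after its values were seen and was higher in c-kit- cells, at 9.09, 9.16 and 9.00 against 7.77, 7.96 and 7.83 (log2 1.23, SE 0.11, limma adjusted p = 0.000216).

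Of 18 other glutathione transferases, c-kit- cells had 4 higher (22.2%) and 0 lower, against 9.33% and 8.79% of all genes. Mgst2, a membrane-bound relative of Mgst3, was at 8.38, 7.94 and 8.14 against 6.03, 6.15 and 5.86, a 4.42-fold difference (log2 2.14, SE 0.14, limma adjusted p = 7.1e-05). Gsto1, the omega class enzyme, was at 6.94, 6.89 and 6.53 against 5.24, 5.53 and 5.46 (log2 1.38, limma adjusted p = 0.000487). Gsta3, a further alpha class enzyme, had a log2 fold change of 1.06 (limma adjusted p = 0.00153), and the 4th was Gstt2 of the theta class (log2 0.96). All 4 kept their call in each of the 6 fits without 1 array.

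Of 13 other NRF2 targets, 3 (23.1%) were higher and 0 lower, against 9.33% and 8.79% of all genes. All 3 were reductases of carbonyl compounds. Akr1b8, an aldo-keto reductase, was at 7.91, 7.88 and 7.52 on the c-kit- arrays and at 5.94, 5.50 and 6.07 on the c-kit+ arrays (log2 1.93, SE 0.18, limma adjusted p = 0.00025). The carbonyl reductases Cbr3 and Cbr1 had log2 fold changes of 0.94 and 0.88 (limma adjusted p = 0.00606 and 0.0186), and Cbr1 passed in 3 of 6 fits without 1 array. On the c-kit+ arrays Cbr3 was at 4.01, 4.34 and 4.28, below the array medians. Among 10 regulators and partners of NRF2, Bach2, a repressor that binds Maf recognition elements, was higher (log2 0.81, limma adjusted p = 0.00598), as was Rbx1, a subunit of the cullin ligase that KEAP1 recruits (log2 0.65, limma adjusted p = 0.00321).

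The 14 genes of cystine uptake and glutathione turnover held no called gene, with log2 fold changes from -0.43 to 0.50, and neither did Gpx5 and Gpx6. Of 11 genes listed for NADPH supply, Pgls of the pentose phosphate pathway (log2 0.40) and the mitochondrial malic enzyme Me2 (log2 0.37) were higher, and Nnt, the mitochondrial transhydrogenase, was lower (log2 -0.70). These calls were weak, since Pgls passed in 0, Me2 in 1 and Nnt in 2 of the 6 fits without 1 array. Of 21 other thioredoxin-fold proteins, Txndc5 (log2 0.90), Txnl4a, which belongs to the splicing machinery (0.68), and Txndc17 (0.64) were higher and Pdia6, a disulfide isomerase of the endoplasmic reticulum, was lower (log2 -0.58). Txndc17 and Pdia6 each passed in 4 of 6 fits without 1 array.

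Selenoproteins, which include the thioredoxin reductases and Gpx1, had both directions. Selenom, a thioredoxin-like selenoprotein of the endoplasmic reticulum, was at 8.19, 7.79 and 7.75 on the c-kit- arrays and at 9.83, 9.44 and 9.52 on the c-kit+ arrays, the strongest fall among the 139 genes (log2 -1.68, SE 0.16, limma adjusted p = 0.0003). Of the 16 genes listed with the methionine sulfoxide reductases, Msra (-0.54) and Selenot (-0.41) were lower as well, and Selenop, the secreted selenium carrier, was higher (log2 0.90). Of 7 genes of the selenocysteine machinery, Pstk, which prepares the selenocysteine transfer RNA, was higher (log2 0.57), and Sephs2 (-0.60), Secisbp2l (-0.43) and Eefsec (-0.41), which make the selenium donor and act at the ribosome, were lower. Apart from Selenom, these 7 calls passed in 1 to 3 of the 6 fits without 1 array.

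Sesn1, a sestrin, was at 7.31, 7.57 and 7.57 against 6.19, 5.80 and 6.56 (log2 1.30, SE 0.19, limma adjusted p = 0.00227). It was joined by Sesn2 (log2 0.46) and Park7, an oxidation sensor (log2 0.41), each of which passed in 1 of 6 fits without 1 array. Among 11 NADPH oxidase genes, which produce oxidants, 0 were higher and 2 (18.2%) lower, against 9.33% and 8.79% of all genes. The 2 were Noxo1, the organizer of the NOX complex (log2 -0.86, limma adjusted p = 0.0055), and Duox1 (log2 -0.53, limma adjusted p = 0.0307). Duox1 had values from 3.90 to 4.75, below the array medians, and passed in 2 of 6 fits without 1 array. Cybb, the leukocyte oxidase subunit, was not called (log2 -0.84, limma adjusted p = 0.103).

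**Figure D4:**
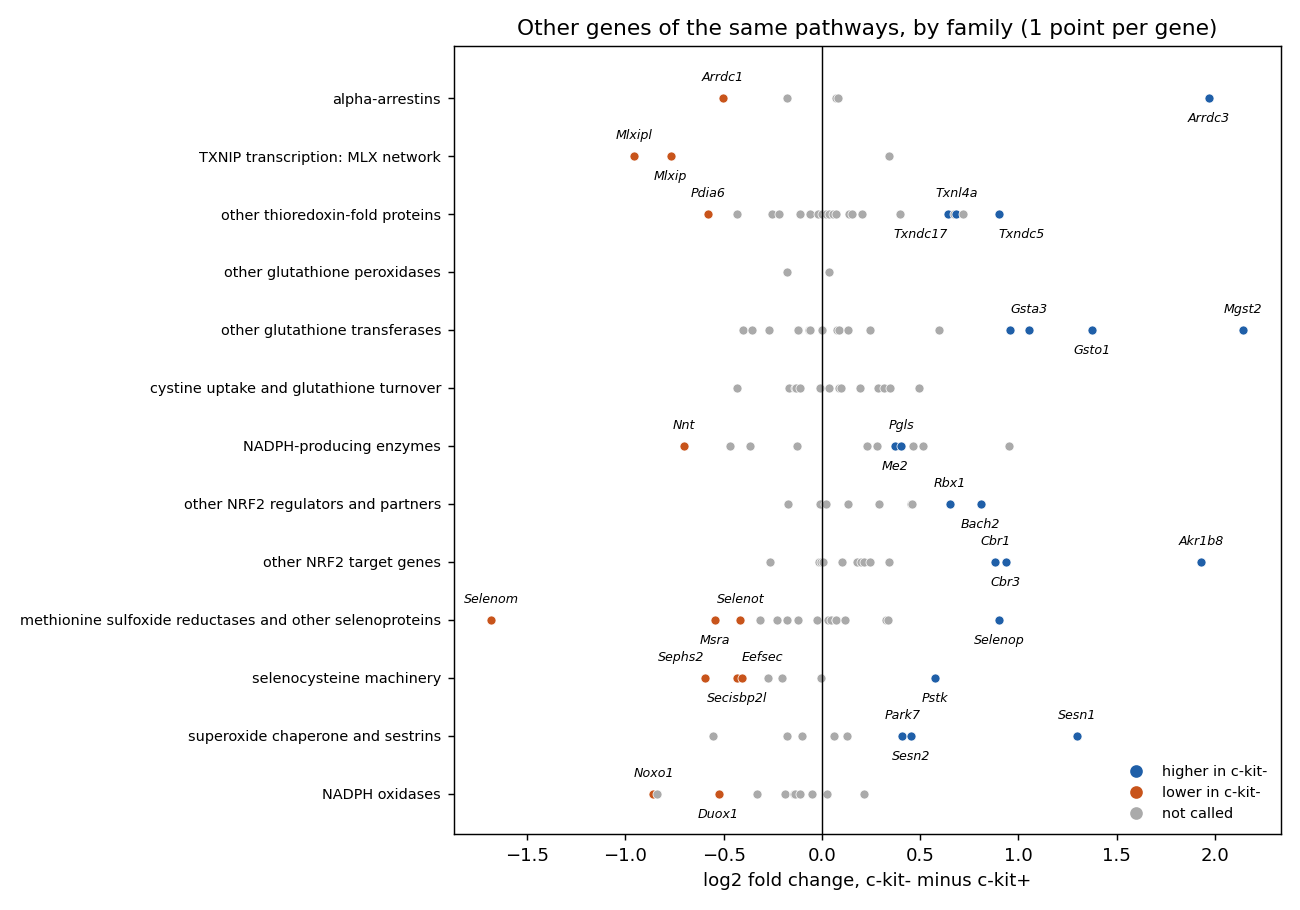
Log2 fold change (x axis, c-kit- minus c-kit+) of the 139 other genes of the same pathways, 1 point per gene in rows by family, with called genes coloured and up to 3 per family and direction named. Arrdc3, Mgst2 and Akr1b8 lie farthest to the right and Selenom farthest to the left.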

How the data were processed

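Affymetrix Mouse Gene 2.0 ST arrays were hybridized with amplified RNA of 3 c-kit- and 3 c-kit+ samples. The authors deposited log2 values after RMA, which corrects background, normalizes quantiles between arrays and summarizes probes, with 1 value per Entrez gene ID and array. The RMA version and probe set definition are not given in the sources used here. No further normalization was applied. Of 24973 genes, 24481 were named from a gene table of GRCm38.p6, 93 from the platform table, and 399 stayed unnamed. Every gene entered 1 fit (lmFit and eBayes of limma 3.58.1 under R 4.3.3, with population as its term) with Benjamini-Hochberg adjustment over all genes and a threshold of 0.05. The methods' analysis of variance per gene was an alternative. The procedure was tested on simulated data. Precision is limited by the number of arrays, as there are no read counts. The p-values rest on the spread between arrays of a population, which limma moderates with that of all genes. This spread holds differences between mice, sorts and amplifications together. Values per array are given for called genes and for genes whose call changed under an alternative. Of the other pathway genes, up to 3 called genes per family and direction, all alpha-arrestins and all MLX genes are given, and genes beyond this rule (Gstt2, Cybb, Hspa1a, Hspa1b, Slc2a1) were chosen after their values were seen. The genes and lists were chosen with earlier results of these data known. Markers of spermatocytes (1 higher and 1 lower of 8), Sertoli cells (1 higher of 10), Leydig cells (0 of 7) and peritubular myoid cells (1 higher and 2 lower of 8) were also examined, as were spermatids (1 lower of 10).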

Additional observations from a re-analysis of the deposited data

How the results depend on the processing

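Across the 40 genes and 20 alternatives, 736 of 791 comparisons kept their side of the threshold, 40 lost a call and 15 gained one, and 0 called genes changed direction. Of 40 genes, 11 were higher. This was 9 to 11 when 1 array was left out, where fewer of all genes were called as well. With c-kit+ replicate 3 as the only c-kit+ array, the log2 fold changes of the 11 ran from 0.27 (Nqo1) to 1.70 (Gstp1). That fit assumes that the lone array varies like the others. The single gene lower, Prdx4, was not called with a fold change over 1.5 required (0 with either p rule). With 1 array left out the count was 0 to 1, with the call kept only without c-kit- replicate 1. The ANOVA per gene called 2 lower, Sod2 and Hmox2, and 8 higher. Of the other pathway genes, 20 were higher, against 10 in the ANOVA. With 1 array left out this was 12 to 20 (13 without c-kit- replicate 2, 12 without c-kit+ replicate 3). The 13 lower became 3 in the ANOVA and 6 under either fold rule. With 1 array left out they were 4 to 10 (6 without c-kit- replicate 2, 7 without c-kit+ replicate 1, 4 without c-kit+ replicate 2). In the ANOVA, under the fold rules and with 1 array left out, fewer of all genes were called as well, in both directions. The fits without an array rest on fewer arrays, and the cause of the other shifts was not tested. The scalings moved the median of all genes by at most 0.03.

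Whether samples of the same number share an origin is not given in the labels. Deviations of same-numbered samples correlated at 0.10, 0.10 and 0.14, each sample correlating best with its own number. With the replicate number as a fixed block, 10 genes were higher and 1 was lower (22 and 11 of the pathway genes), and as a random block 12 and 1 (22 and 15). Depth does not apply to arrays. Gpx8, Nqo1, Gpx2 and Glrx averaged below 5, near the low end of the values, which limits their measurement.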
